A study of Homo sapiens with 5 samples.

Results

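The positions described here are the 2′-O-methylated nucleotides of 5.8S ribosomal RNA (rRNA) and of the 5′ region of 28S rRNA, as measured by RiboMethSeq in PaTu cells, established human pancreatic cancer cells. The rule that selects them uses name and number alone: both 5.8S positions of the deposited table and every 28S position numbered 2000 or less, which gave 15 positions (2 of 5.8S and 13 of 28S) of the 110 in the table. The other 95 were 54 positions of 28S above 2000 and 41 of 18S. The table holds 5 libraries: ADAR1 #1 and ADAR1 #2, a single ADAR2 #1, and as controls Mock and SCR. The series concerns ADAR1 and ADAR2, which deaminate adenosines of duplex RNA to inosines. How either gene was manipulated is not in the labels, nor is whether #1 and #2 are repeat cultures or different reagents. Nothing states that each library is its own culture, and every p-value therefore reflects library-to-library spread that may be technical. The table holds rRNA positions alone, so neither ADAR transcript levels nor marker genes of the cells were checked here.

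Ribosomal RNA carries many methyl groups on the 2′ oxygen of the ribose. Fibrillarin places them, within small nucleolar particles whose box C/D snoRNA pairs with the rRNA and so selects the nucleotide. The rule of that pairing is that the methylated nucleotide lies opposite the 5th snoRNA nucleotide upstream of box D or of its inner copy, box D′. 5.8S rRNA is cut from the same precursor as 28S rRNA and base-pairs with the 5′ region of 28S in the large subunit. In RiboMethSeq, RNA is broken in alkaline buffer, and a methylated ribose protects the bond that follows it. The level is thus read from a gap in fragment ends and runs from 0 (unmethylated) to 1 (fully methylated).

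Sequences of the 5.8S rRNA and of 6 guide snoRNAs show how the positions are addressed. All come from the GENCODE annotation of GRCh38. The 5.8S sequence is that of RNA5-8SN2 (chr21:8212572-8212724, plus strand), and 4 annotated copies with a transcript held 1 and the same sequence. Pairing with the guides below placed the start of its 153 nucleotides 1 nucleotide after the start of the table's numbering, by the same shift for both positions. The capitals are the nucleotides that the table then numbers 14 and 75.
RNA5-8SN2: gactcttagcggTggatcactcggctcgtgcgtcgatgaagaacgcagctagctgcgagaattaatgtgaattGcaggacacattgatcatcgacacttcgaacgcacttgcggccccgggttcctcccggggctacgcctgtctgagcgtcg

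The guides of these 2 positions are SNORD71 (chr16:71758402-71758487, minus strand, in an intron of AP1G1) and SNORD96A (chr5:181241814-181241892, minus strand, in an intron of RACK1). Capitals mark the stretch that pairs with 5.8S.
SNORD71: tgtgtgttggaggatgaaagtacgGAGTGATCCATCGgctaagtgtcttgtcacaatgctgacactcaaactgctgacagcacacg
SNORD96A: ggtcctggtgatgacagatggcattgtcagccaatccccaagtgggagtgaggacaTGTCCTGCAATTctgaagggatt

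The SNORD71 stretch formed 13 pairs with the 5.8S sequence, 1 of them a G-U wobble, and put its 5th nucleotide before the box opposite position 14. The SNORD96A stretch formed 12 pairs with no wobble and put that nucleotide opposite position 75. The methylated nucleotides in their 5.8S context are the capitals of the following stretches.
Position 14: cggTggatcactc
Position 75: aattGcaggaca

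For 28S, a further set of guides is shown because guides known for neighbouring positions, or for the same position, share a stretch of letters. SNORD126 (chr14:20326450-20326526, minus strand, in an intron of CCNB1IP1) is known as the guide of position 1323, and SNORD18A (chr15:66503243-66503314, minus strand, in an intron of RPL4) as that of position 1326. SNORD32A (chr19:49489965-49490048, plus strand, in an intron of RPL13A) and SNORD51 (chr2:206161878-206161957, plus strand, in an intron of EEF1B2) are both known as guides of position 1524. Capitals mark the longest stretch that the 2 guides of a pair share.
SNORD126: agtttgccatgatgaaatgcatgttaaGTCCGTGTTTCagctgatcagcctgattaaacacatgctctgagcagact
SNORD18A: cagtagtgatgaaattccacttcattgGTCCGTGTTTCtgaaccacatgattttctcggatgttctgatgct
SNORD32A: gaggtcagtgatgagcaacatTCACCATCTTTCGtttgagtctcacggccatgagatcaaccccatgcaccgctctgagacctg
SNORD51: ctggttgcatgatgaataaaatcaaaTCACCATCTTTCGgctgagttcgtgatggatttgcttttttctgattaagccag

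SNORD126 and SNORD18A shared 11 nucleotides. The selecting nucleotide was the 9th of them in SNORD126 and the 6th in SNORD18A, a shift of 3 nucleotides. Positions 1323 and 1326 are likewise 3 nucleotides apart. SNORD32A and SNORD51 shared 13 nucleotides, and in both the selecting nucleotide was the 10th, a shift of 0. Other guides known for these positions are SNORD26 (398), SNORD21 (1316), SNORD104 (1340), SNORD38A and SNORD38B (1871) and SNORD48 (1881). The 28S sequence itself was not used here, so the pairing of these guides with 28S was not computed.

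The 13 positions of 28S fell into 6 blocks, a new block starting after a gap of over 50 nucleotides: 398 and 400, 1316 to 1340, 1522 to 1534, 1625, 1760, and 1871 and 1881. Of the 13, 6 had another listed position within 6 nucleotides and 11 within 14 nucleotides. A RiboMethSeq level is normally set against its flanking nucleotides, so close positions can enter each other's level. The number limit left a wide gap. The last position inside it, 28S 1881, had levels of 0.574 and 0.616 in ADAR1 #1 and #2, 0.580 in ADAR2 #1, 0.536 in Mock and 0.545 in SCR. The first outside it, 28S 2351, had 0.938, 0.948, 0.958, 0.951 and 0.9497 in the same order of libraries.

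Averaged over the 5 libraries, the 15 positions ranged from 0.489 at 28S 1323 to 0.971 at 28S 1534, with a median of 0.835, compared with a median of 0.889 over the other 95 positions. A mean level of at least 0.9 was reached by 6 of the 15 (40%), compared with 42 of the 95 (44.2%). A mean level below 0.7 was found at 3 of the 15 (20%: 28S 1316, 1323 and 1881), compared with 11 of the 95 (11.6%). These shares are descriptions of 1 table and were not tested.

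**Figure D1:**
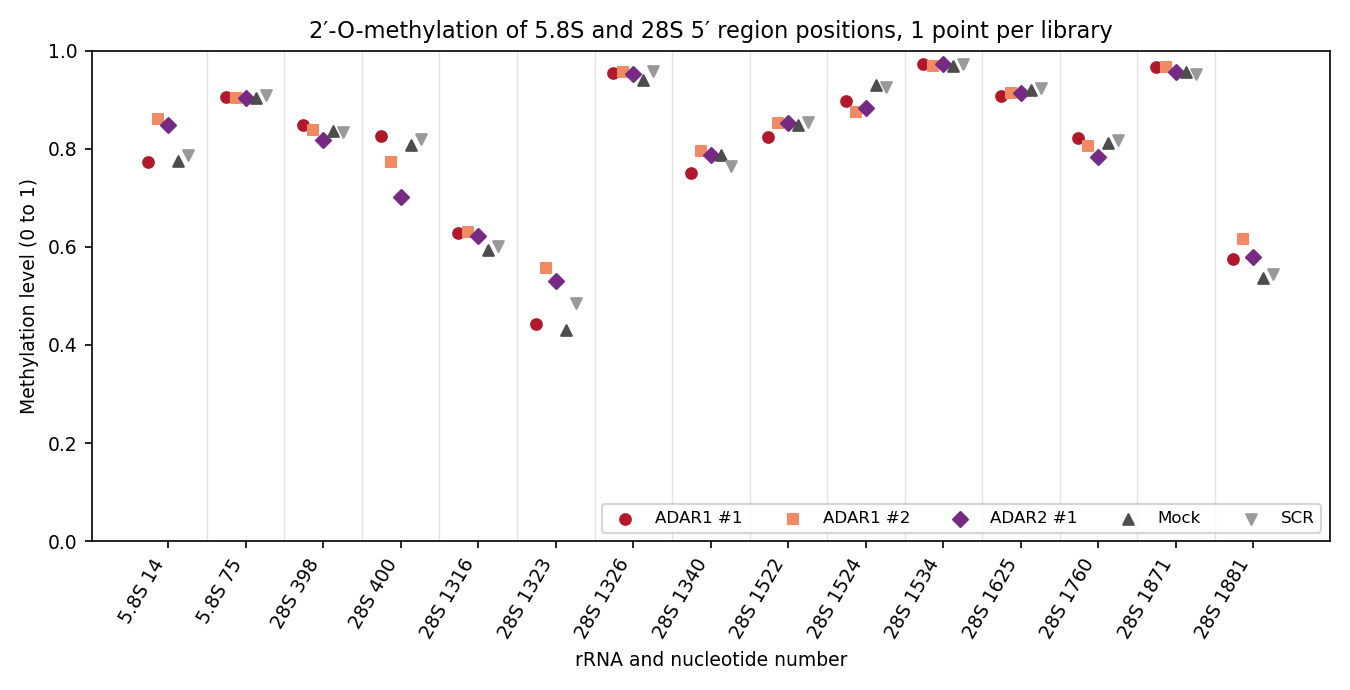
Methylation level (y axis, 0 to 1) of each 5.8S and 28S 5′ region position (x axis), with 1 point per library in the order ADAR1 #1, ADAR1 #2, ADAR2 #1, Mock and SCR. Positions 1316, 1323 and 1881 lie below 0.7 in every library, position 1323 stands far below its neighbour 1326, and the points spread most at 1323 and 400.

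The 5.8S positions behaved differently from each other in spread. Position 75 had 0.906 in ADAR1 #1, 0.903 in ADAR1 #2, 0.905 in ADAR2 #1, 0.903 in Mock and 0.909 in SCR. The groups overlapped there, and all 5 libraries lay within 0.00598 of each other. Position 14 had 0.773 in ADAR1 #1, 0.861 in ADAR1 #2, 0.849 in ADAR2 #1, 0.776 in Mock and 0.787 in SCR. ADAR1 #2 and ADAR2 #1 were above both controls, while ADAR1 #1 was the lowest of the 5. The ADAR1 mean at position 14 was 0.817 ± 0.0623 (SD, n = 2), against 0.782 ± 0.00794 (SD, n = 2) in the controls.

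In the first 28S block, 2 nucleotides separate positions 398 and 400. Position 400 had 0.827 in ADAR1 #1, 0.773 in ADAR1 #2, 0.702 in ADAR2 #1, 0.807 in Mock and 0.820 in SCR. ADAR2 #1 was the lowest library and ADAR1 #2 the next, whereas ADAR1 #1 was above both controls. Position 398, a target of SNORD26, had 0.849 in ADAR1 #1, 0.839 in ADAR1 #2, 0.817 in ADAR2 #1, 0.837 in Mock and 0.834 in SCR. Both ADAR1 libraries were above both controls and ADAR2 #1 was below them. Position 400 was below position 398 in every library, by -0.0222 in ADAR1 #1, -0.0660 in ADAR1 #2, -0.115 in ADAR2 #1, -0.0301 in Mock and -0.0141 in SCR.

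The block from 1316 to 1340 held the widest contrast between neighbours. Position 1323, the target of SNORD126, had 0.442 in ADAR1 #1, 0.557 in ADAR1 #2, 0.530 in ADAR2 #1, 0.431 in Mock and 0.485 in SCR. ADAR1 #2 and ADAR2 #1 were above both controls and ADAR1 #1 was between them. Position 1326, the target of SNORD18A, had 0.955 in ADAR1 #1, 0.956 in ADAR1 #2, 0.953 in ADAR2 #1, 0.940 in Mock and 0.959 in SCR. All 3 ADAR libraries lay between the 2 controls there. The step between these neighbours, 1326 minus 1323, was 0.513 in ADAR1 #1, 0.399 in ADAR1 #2, 0.423 in ADAR2 #1, 0.509 in Mock and 0.474 in SCR. SNORD126 and SNORD18A, which share guide letters, are thus known for one position that was methylated in part and one that was methylated almost fully, in all 5 libraries. Whether the shared letters pair at both positions was not computed.

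At position 1316, a target of SNORD21, the levels were 0.628 in ADAR1 #1, 0.631 in ADAR1 #2, 0.621 in ADAR2 #1, 0.594 in Mock and 0.603 in SCR. The 3 ADAR libraries lay above both controls and within 0.0098 of each other. Position 1340, the target of SNORD104, had 0.750 in ADAR1 #1, 0.795 in ADAR1 #2, 0.788 in ADAR2 #1, 0.787 in Mock and 0.764 in SCR. The ADAR1 libraries lay on opposite sides of the controls there.

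In the block from 1522 to 1534, one position lay on the same side of the controls in every ADAR library. Position 1524, the target of SNORD32A and SNORD51, had 0.898 in ADAR1 #1, 0.876 in ADAR1 #2, 0.884 in ADAR2 #1, 0.931 in Mock and 0.926 in SCR. All 3 ADAR libraries were below both controls. Its neighbour 1522 had 0.825 in ADAR1 #1, 0.853 in ADAR1 #2, 0.853 in ADAR2 #1, 0.849 in Mock and 0.855 in SCR, with only ADAR1 #1 outside the controls. Position 1534 had 0.972 in ADAR1 #1, 0.969 in ADAR1 #2, 0.972 in ADAR2 #1, 0.969 in Mock and 0.973 in SCR, the narrowest spread of the 15 positions at 0.00392.

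The remaining pair of positions stood alone in their blocks. Position 1625 had 0.907 in ADAR1 #1, 0.914 in ADAR1 #2, 0.915 in ADAR2 #1, 0.920 in Mock and 0.924 in SCR, with all 3 ADAR libraries below both controls by small amounts. Position 1760 had 0.822 in ADAR1 #1, 0.805 in ADAR1 #2, 0.784 in ADAR2 #1, 0.811 in Mock and 0.818 in SCR. ADAR2 #1 was the lowest there, and the ADAR1 libraries lay on opposite sides of the controls.

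In the last block, position 1871, the target of SNORD38A and SNORD38B, had 0.967 in both ADAR1 libraries, 0.957 in ADAR2 #1, 0.957 in Mock and 0.954 in SCR. The ADAR1 libraries were above the other 3, with a mean of 0.967 ± 0.000126 (SD, n = 2) against 0.955 ± 0.00219 (SD, n = 2) in the controls. Position 1881, the target of SNORD48, was given above. It was above both controls in all 3 ADAR libraries, with an ADAR1 mean of 0.595 ± 0.0296 (SD, n = 2) against 0.541 ± 0.00574 (SD, n = 2) in the controls. The positions 1871 and 1881 are 10 nucleotides apart, and 1881 was lower in every library, by -0.351 to -0.420.

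Spread across the libraries went with the level. The highest and lowest libraries differed by a median of 0.0152 at the 6 positions with a mean of at least 0.9, 0.0417 at the 6 positions between 0.7 and 0.9, and 0.0798 at the 3 below 0.7. Over the other 95 positions the same medians were 0.0215, 0.0453 and 0.1523. Over all 15 the median was 0.0377, against 0.0319 over the other 95. A spread of at least 0.05 was seen at 5 of the 15 (33.3%: 28S 1323, 400, 1881 and 1524 and 5.8S 14) and at 30 of the 95 (31.6%). The widest were 0.126 at 28S 1323 and 0.125 at 28S 400, while the widest elsewhere in the table was 0.310.

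**Figure D2:**
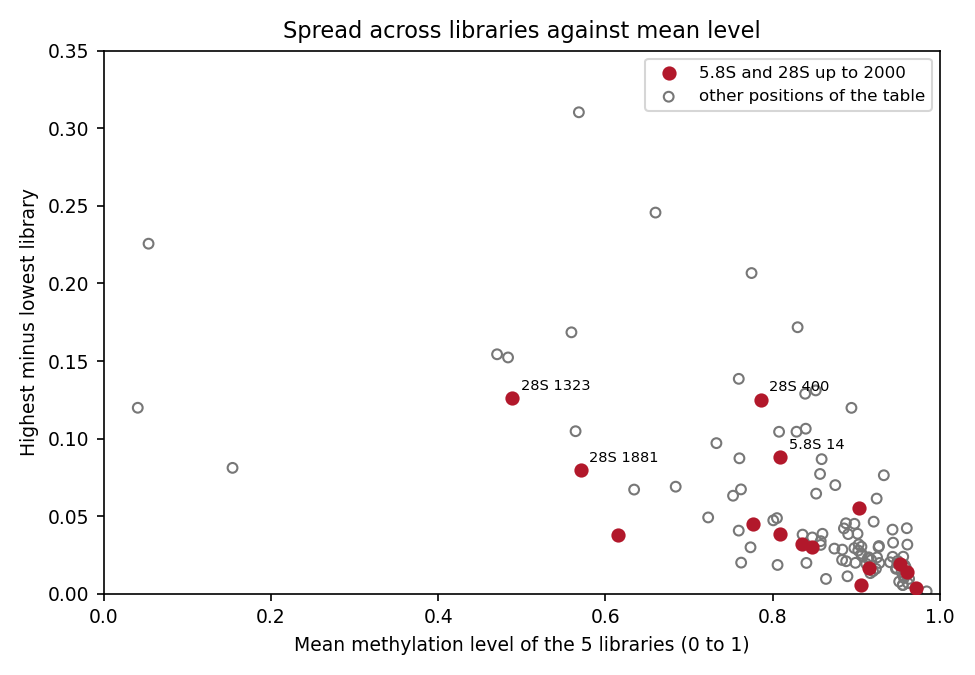
Highest minus lowest library (y axis) against the mean methylation level of the 5 libraries (x axis), for the 15 positions of 5.8S and 28S up to 2000 (filled) and the other 95 positions (open). Positions 1323, 400, 1881 and 5.8S 14 have the widest spreads of the 15, between 0.0798 and 0.126, and lie within the range of the other positions.

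Mock and SCR differed by a root mean square of 0.0173 over the 15 positions, and the largest difference was at 28S 1323. The 2 ADAR1 libraries differed by 0.0443, with 3 positions at least 0.05 apart (5.8S 14 and 28S 400 and 1323). ADAR1 #1 was 0.0216 from Mock and 0.0205 from SCR. It differed from either by at least 0.05 at 0 of the 15, beside 15.8% (Mock) and 13.7% (SCR) of the other 95. Over the other 95 positions its distances were 0.0484 (Mock) and 0.0522 (SCR). A root mean square gives most weight to the largest differences. The median absolute difference of ADAR1 #1 was 0.0129 (Mock) and 0.0143 (SCR) over the 15, and 0.0144 and 0.0111 over the other 95. For Mock against SCR that median was 0.0068 over the 15. By root mean square, ADAR1 #2 was closer to ADAR2 #1 (0.0238) than to Mock (0.0488) or SCR (0.0390). The distances of ADAR2 #1 were 0.0464 (Mock) and 0.0410 (SCR). ADAR1 #2 was nearer than ADAR1 #1 to the ADAR2 #1 level at 10 of the 15 positions (66.7%), and at 66 of the other 95 (69.5%). No test was made of these distances, since positions of 1 library are not replicates.

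**Figure D3:**
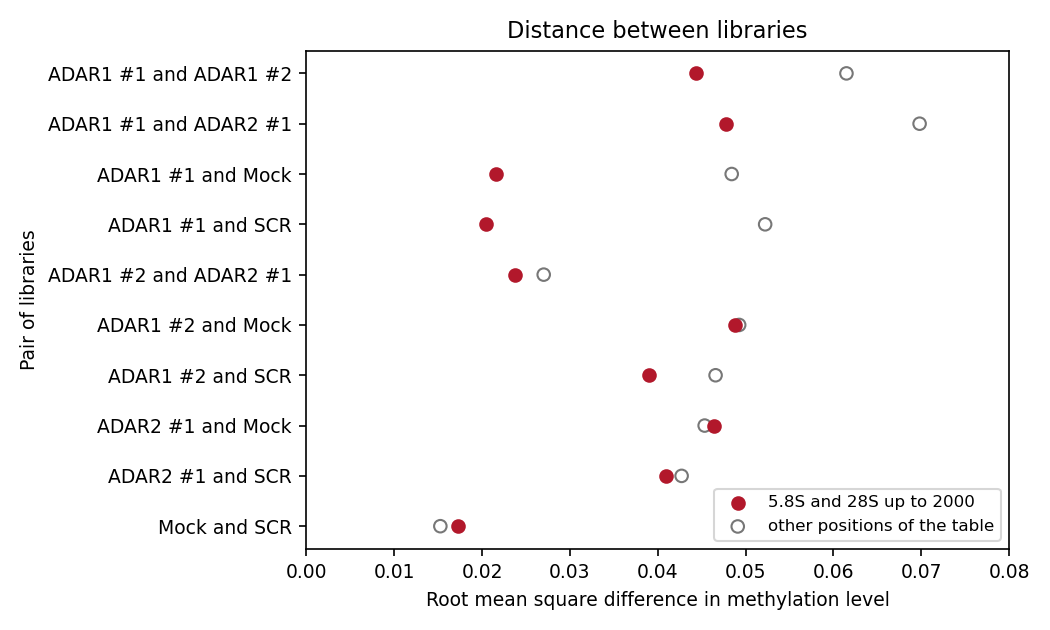
Root mean square difference in methylation level (x axis) for each pair of libraries (y axis), over the 15 positions of 5.8S and 28S up to 2000 (filled) and over the other 95 (open). Over the 15 positions ADAR1 #1 lies 0.0216 and 0.0205 from Mock and SCR, and Mock lies 0.0173 from SCR. The distances of ADAR1 #1 are larger over the other 95, in a measure that gives most weight to the largest differences. Its median absolute difference from SCR is instead larger over the 15 (0.0143) than over the other 95 (0.0111).

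The first comparison asked whether levels differed between the ADAR1 libraries and the controls. A size rule asked that both libraries lay outside both control values on the same side, with a mean difference of at least 0.05. It was met by 1 position of the 15, 28S 1881, which was higher in ADAR1, and by 10.9% of the table (7.27% higher, 3.64% lower). At any size, both ADAR1 libraries were above both controls at 4 of the 15 (28S 398, 1316, 1871 and 1881, 35.5% of the table) and below them at 2 (28S 1524 and 1625, 14.5% of the table). The ADAR1 mean was higher at 7 and lower at 8 of the 15, beside 70 higher and 40 lower of all 110. The median difference was -0.00065, beside 0.0078 over all 110 positions. Read against these shares of the table, the counts are not a result about the 15 positions.

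In limma, fitted over all 110 positions and adjusted by Benjamini-Hochberg, 0 of the 15 and 0% of the table passed an adjusted p of 0.05. An unadjusted p below 0.05 was given to 2 of the 15 (28S 1524 and 1871) and to 19.1% of the table. At 28S 1524 the ADAR1 libraries were lower by -0.0420 (95% interval -0.0698 to -0.0141, limma adjusted p = 0.173). At 28S 1871 they were higher by 0.0122 (0.0042 to 0.0202, limma adjusted p = 0.173). The difference at 28S 1881 was 0.0548 (-0.0301 to 0.140, limma adjusted p = 0.507). Intervals reached 0.0069 on either side at 28S 1534 and 0.133 at 28S 1323, so differences of the size seen at 1323 were not detectable there.

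Several ADAR1 differences were set by 1 library. Against the controls, the difference at 5.8S 14 was 0.0796 without ADAR1 #1 and -0.0084 without ADAR1 #2. At 28S 1323 it was 0.0989 and -0.0158, at 28S 400 -0.0408 and 0.0137, and at 28S 1881 0.0757 and 0.0339, in the same order. At 28S 1316 both values were close, 0.0331 and 0.0296. They were 0.0121 and 0.0123 at 28S 1871, and -0.0529 and -0.0310 at 28S 1524. With 1 ADAR1 library left out, limma called 5 of the 15 without ADAR1 #1 (5.8S 14 and 28S 1323, 1524, 1871 and 1881, beside 50% of the table) and 2 without ADAR1 #2 (28S 1524 and 1871, beside 25.5%). Those fits take their spread from Mock and SCR alone and assume that the single ADAR1 library varies as they do.

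**Figure D4:**
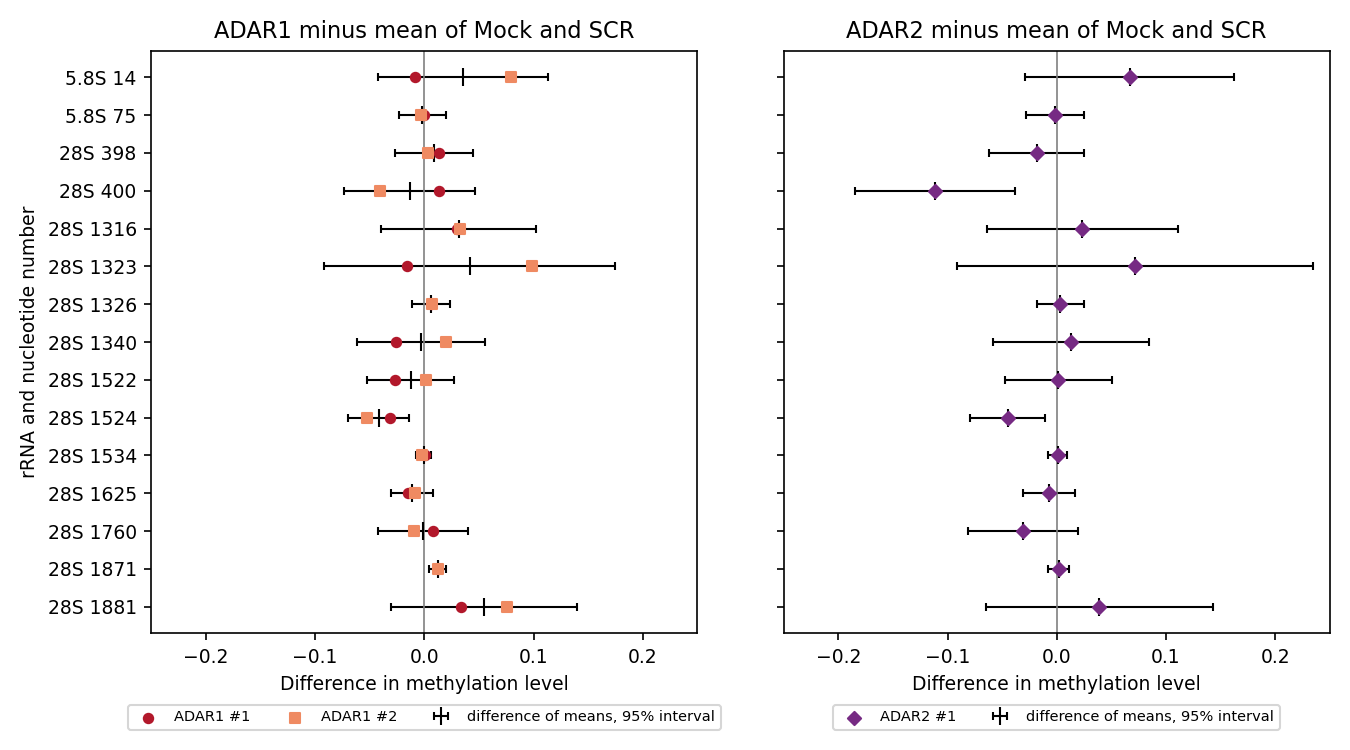
Difference in methylation level (x axis) from the mean of Mock and SCR for each position (y axis), for ADAR1 (left) and ADAR2 (right). Black ticks with bars are the difference of means with the 95% interval of limma, and coloured points are single libraries; only 28S 1524 and 1871 for ADAR1 and 28S 400 and 1524 for ADAR2 have intervals that leave out 0, and 0 positions passed the adjusted test.

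The second comparison set the single ADAR2 library against the same controls. It lay outside both control values, and at least 0.05 from their mean, at 3 of the 15 positions, beside 17.3% of the table. It was above them at 5.8S 14 and 28S 1323 (11.8% of the table) and below them at 28S 400 (5.45% of the table). At 28S 1323 the controls themselves differed most of all 110 positions, with Mock minus SCR at -0.0546. At any size ADAR2 #1 was outside both controls at 11 of the 15 (82.7% of the table), above them at 6 (51.8%) and below them at 5 (30.9%). ADAR2 #1 was above the control mean at 9 and below it at 6 of the 15, beside 72 and 38 of all 110. The median difference was 0.0013, beside 0.0053 over all 110 positions.

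In limma 0 of the 15 and 0% of the table passed, and an unadjusted p below 0.05 was given to 2 of the 15 (28S 400 and 1524) and to 12.7% of the table. At 28S 400 ADAR2 #1 was lower by -0.111 (95% interval -0.185 to -0.0378, limma adjusted p = 0.219). At 28S 1524 it was lower by -0.0450 (-0.0790 to -0.0109, limma adjusted p = 0.219). The difference was 0.0669 (-0.0287 to 0.162, limma adjusted p = 0.515) at 5.8S 14 and 0.0718 (-0.0911 to 0.235, limma adjusted p = 0.673) at 28S 1323. At 1323 it was 0.0445 without Mock and 0.0991 without SCR. A fit of Mock, SCR and ADAR2 #1 alone called 4 of the 15 (5.8S 14 and 28S 400, 1323 and 1524, beside 33.6% of the table), with a spread that came from Mock and SCR only. Leaving out either ADAR1 library also gave 4 (beside 32.7% without ADAR1 #1 and 34.5% without ADAR1 #2) in fits whose spread came from Mock and SCR only.

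Both comparisons use the same 2 control libraries, so their differences share those values. Side by side, ADAR1 and ADAR2 differed from the controls by -0.0420 and -0.0450 at 28S 1524, by 0.0313 and 0.0233 at 28S 1316 and by 0.0548 and 0.0391 at 28S 1881. They did so by -0.0115 and -0.0073 at 28S 1625 and by 0.0122 and 0.0017 at 28S 1871. These 5 positions are those where all 3 ADAR libraries lay on the same side of both controls, a pattern held by 36.4% of the table. At 28S 1871 ADAR2 #1 met it barely, with 0.9568 against 0.9567 in Mock, a margin smaller than that between Mock and SCR.

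The third comparison was ADAR1 directly against ADAR2. ADAR2 #1 lay outside the 2 ADAR1 values at 7 of the 15 positions, beside 60% of the table. In limma 0 of the 15 and 0% of the table passed, and an unadjusted p below 0.05 was given to 2 of the 15 (28S 400 and 1871) and to 8.18% of the table. At 28S 400 the ADAR1 libraries were higher than ADAR2 #1 by 0.0979 (95% interval 0.0243 to 0.172, limma adjusted p = 0.528). It was 0.0706 without ADAR1 #1 and 0.1252 without ADAR1 #2, and ADAR2 #1 was the lower in both. At 28S 1871 the difference was 0.0105 (0.0007 to 0.0203, limma adjusted p = 0.579). At 5.8S 14 it was -0.0312 (-0.127 to 0.0643, limma adjusted p = 0.888), and it was 0.0128 without ADAR1 #1 and -0.0753 without ADAR1 #2. At 28S 1323 the difference was 0.0271 without ADAR1 #1 and -0.0876 without ADAR1 #2. Fits with 1 ADAR1 library left out set a single library against a single library. Their spread comes from Mock and SCR only, so their calls are not given for this comparison.

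The mean level over the 15 positions was 0.806 in ADAR1 #1, 0.821 in ADAR1 #2, 0.807 in ADAR2 #1, 0.803 in Mock and 0.810 in SCR. ADAR1 #2 was the highest, and ADAR1 #1 and ADAR2 #1 lay between the controls. Over the other 95 positions the means were 0.830 in ADAR1 #1, 0.845 in ADAR1 #2, 0.839 in ADAR2 #1, 0.826 in Mock and 0.831 in SCR. By the mean, ADAR2 #1 was thus above both controls over the other positions and between them over these 15. By the median this was not so. Over the 15 its median was above both controls (0.849, against 0.837 in Mock and 0.834 in SCR). Over the other 95 the median of ADAR2 #1 was 0.8897, as was that of SCR, with 0.8855 in Mock. Over 28S above 2000 the mean of ADAR2 #1 was close to that of SCR (0.8401 against 0.8396, with 0.8353 in Mock). Over 18S it was 0.8368, against 0.8132 in Mock and 0.8185 in SCR. ADAR2 #1 was the highest library at 0 of the 15 and at 21 of the 95. With 2 libraries a side, the smallest p of an exact permutation test is 0.333, and these means were left untested.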

How the data were processed

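Per the labels' protocols, total RNA of PaTu cells was DNase-treated and fragmented in bicarbonate, and small RNA libraries were made after end repair. SAMtools 1.15.1, Bowtie2 2.3.5.1, FastQC 0.11.9 and Trimmomatic 0.39 are named, without roles, per the submitters' processing notes. For the rRNA reference and the score formula, nothing is given in the sources used here. What the authors deposited is 1 table of methylation levels, as a fraction from 0 to 1, for 110 positions and 5 libraries. It holds no read counts, so the depth and counting error of each level are unknown.

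Levels were used as deposited. In R 4.3.3, limma 3.58.1 with a trend on the mean level was fitted to all positions and libraries in 3 groups (ADAR1, ADAR2, and Mock with SCR), with 2 residual and 3.41 prior degrees of freedom. P-values are two-sided, with Benjamini-Hochberg adjustment across all 110 positions. The script was checked on simulated data with the same spread at every position. Spread in the real data varies with the level, so that check does not give the power or error of the tests here. Mock and SCR were pooled because neither label names an ADAR gene. The naming rule was that every position of the set is named. The rule for the positions uses no measured value, but the set, its blocks and the tests were chosen with earlier results of these data known. Guide names for 28S positions are background knowledge, and guide sequences come from GENCODE release 29. The place of the 5.8S numbers in its sequence was set by pairing with both guides, with a box of at most 1 mismatch to CTGA. Alternatives were a logit scale (levels bounded to 0.01 and 0.99), no variance trend, a mean level of at least 0.5, median-centred libraries, the compared groups only, an adjusted p of 0.1, size limits of 0.02 and 0.1, the median over the positions, and each library left out. The labels name no batch. Figures were drawn with matplotlib 3.10.9.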

Additional observations from a re-analysis of the deposited data

Results flagged for a closer look

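At 28S position 398 both ADAR1 libraries (0.849 and 0.839) lay above, and ADAR2 #1 (0.817) below, both controls (0.837 in Mock and 0.834 in SCR). The direct difference, ADAR1 minus ADAR2, was 0.0268 (95% interval -0.0169 to 0.0705, limma adjusted p = 0.724), so the test did not separate them. ADAR1 #2 was above Mock by less than Mock was above SCR. Such opposite sides were seen at 1 of the 15 positions and at 10% of the table.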

How the results depend on the processing

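The count of positions past the adjusted threshold was 0 in all 3 comparisons with the logit, no trend, the level filter, median-centring and an adjusted p of 0.1. With the compared groups only it was 4 for ADAR2 and 0 for the other 2 comparisons. With 1 library left out it ranged over 0 to 5 for ADAR1, 0 to 4 for ADAR2 and 0 to 3 for ADAR1 against ADAR2. The size rule gave 1 position for ADAR1, but 3 with a limit of 0.02 (29.1% of the table) and 0 with a limit of 0.1 (2.73%). With 1 library left out it gave 0 to 4: 4 without ADAR1 #1 (18.2% of the table), 0 without ADAR1 #2 (11.8%), 1 without Mock (10%) and 2 without SCR (11.8%). For ADAR2 it gave 3, but 7 with a limit of 0.02 (38.2% of the table), 1 with a limit of 0.1 (3.64%), 2 without Mock (16.4%) and 3 without SCR (20%). The mean over the 15 positions differed by 0.00696 for ADAR1 (-0.00035 to 0.0143 with 1 library left out) and by 0.00047 for ADAR2, which was -0.0046 over positions with a mean of at least 0.5, 0.0131 for the median, and -0.0031 to 0.0040 with 1 control left out. The cause of these shifts was not tested.

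Of 45 single differences, 22 changed sign under some alternative. With median-centring, ADAR2 at 28S 1534 was -0.000101 and ADAR1 minus ADAR2 at 28S 1326 was -3.07e-05. The others changed sign with 1 library left out, over these ranges. For ADAR1 they were -0.0084 to 0.0796 at 5.8S 14, -0.0047 to 0.0013 at 5.8S 75, -0.0408 to 0.0137 at 28S 400, -0.0158 to 0.0989 at 1323, -0.0033 to 0.0159 at 1326, -0.0256 to 0.0195 at 1340, -0.0270 to 0.0019 at 1522, -0.0023 to 0.0010 at 1534 and -0.0097 to 0.0076 at 1760. For ADAR2 they were -0.0045 to 0.0014 at 5.8S 75, -0.0061 to 0.0130 at 1326, -0.0016 to 0.0043 at 1522 and -0.00079 to 0.0025 at 1534. For ADAR1 minus ADAR2 they were -0.0753 to 0.0128 at 5.8S 14, -0.0012 to 0.0010 at 5.8S 75, -0.0876 to 0.0271 at 1323, -0.0385 to 0.0065 at 1340, -0.0284 to 0.00057 at 1522, -0.0079 to 0.0140 at 1524, -0.0031 to 9.58e-05 at 1534 and -0.0052 to 0.0366 at 1881.

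No paired analysis was possible because ADAR1 and ADAR2 share only the number 1 and Mock and SCR carry none.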
